A study of Mus musculus with 2 samples.

Results

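The transcription factors that make and maintain beta cells were followed in pancreatic islets of newborn mice with and without PERK, a kinase of the endoplasmic reticulum that slows translation when unfolded protein builds up. The 10 factors were Pdx1, Nkx6-1, Nkx2-2, Neurod1, Pax6, Insm1, Mnx1, Isl1, Foxa2 and Hnf4a, and every probe set of the array named for 1 of them alone was taken. A probe set is a group of short oligonucleotides that together read out a transcript. This gave 20 probe sets of 22690, and 10 genes of the 12393 represented on the array. Islets were isolated by collagenase P digestion at 2 days after birth, and their labelled cRNA was hybridised to Affymetrix mouse 430A arrays, 1 array of wild-type islets and 1 of PERK knockout islets. Wild-type mice were of mixed strain and of both sexes, per their label. The sources used here do not give the strain or sex of the knockout mice, the allele, or whether pups were pooled. With 1 array per genotype there was no replicate spread and no test, so each ratio below compares these 2 libraries. Because an islet is a mixture of cells, fewer cells of a type and less RNA per cell cannot be told apart in these data.

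Beta cells are the insulin-secreting cells of the islet. Most of these factors bind DNA through a homeodomain (Pdx1, Nkx6-1, Nkx2-2, Mnx1, Pax6 and Isl1). Neurod1 is a basic helix-loop-helix factor, Insm1 a zinc finger factor, Foxa2 a forkhead factor and Hnf4a a nuclear receptor. They act in sequence and in combination: Foxa2 and Hnf4a belong to the wider gut and pancreas lineage, Neurod1, Insm1, Nkx2-2, Pax6 and Isl1 act in several endocrine cell types, and Pdx1, Nkx6-1 and Mnx1 are, among islet cells, mainly factors of beta cells, Pdx1 of delta cells also. Mutations of the human PDX1, NEUROD1 and HNF4A genes cause inherited diabetes of the young, and loss of PERK causes a neonatal diabetes, Wolcott-Rallison syndrome.

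Nkx6-1, Insm1, Mnx1 and Pdx1 had the lowest ratios among the 10 factors, Isl1 had the highest, and the other 5 lay close to equality. The log2 ratio of knockout over wild type ran from -0.58 for Nkx6-1 to 0.33 for Isl1 on each gene's brightest probe set, with a median of -0.15. All 10 genes were measured, meaning above a floor of 39.8 signal units, the 40th percentile of both arrays together, on both arrays. Of them, 7 had a log2 ratio below 0, against 45.1% of the 8133 measured genes, whose median was 0.03. At least 1.5-fold differences were found for 0 of the 10 factors, against 2.95% of measured genes that were that much lower and 4.19% that were that much higher. The only available measure of error is the disagreement between probe sets of the same gene, an SD of 0.26 on the log2 scale per probe set over 2597 genes, or 0.20 among their brightest 649. This SD leaves out any difference between animals, litters or RNA preparations. Of the 10 factors, 4 were lower by more than this SD, as were 15.0% of measured genes, and 1 was higher by more than it, as were 21.9%. The scaling of the arrays moves these shares: of genes at least 1.5-fold apart, 41.3% were lower here, 62.8% when each array was divided by its median, 52.6% with quantile and 53.8% with loess normalisation. Division by the median also put 59.3% of measured genes and 8 of the 10 factors below 0.

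**Figure D1:**
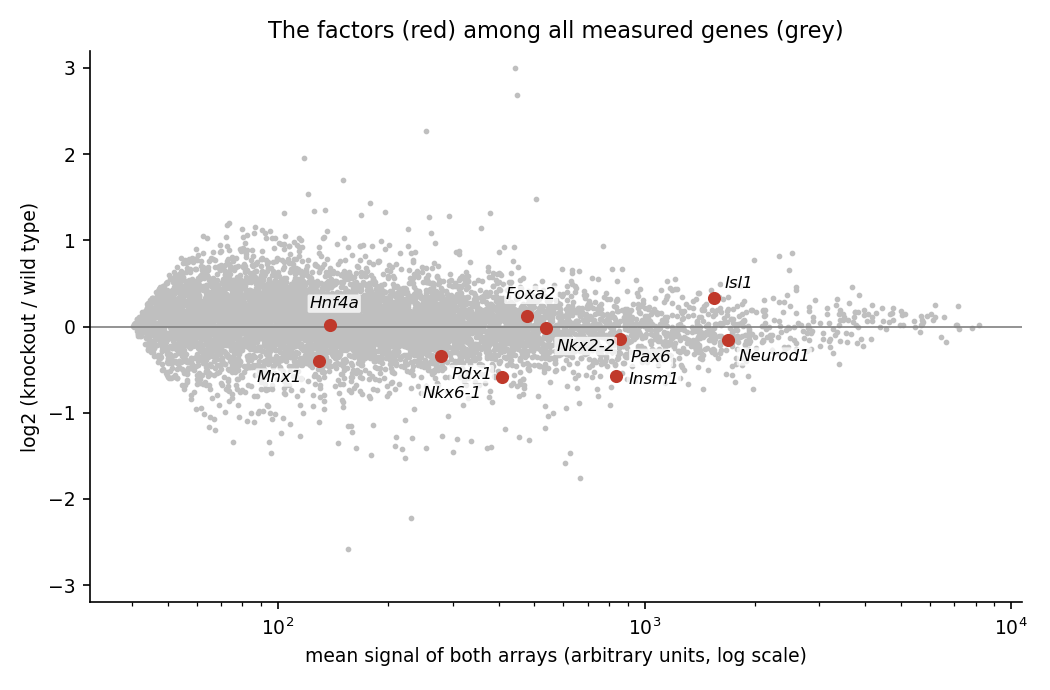
Log2 ratio of knockout over wild type (vertical axis) against the mean signal of both arrays (horizontal axis, arbitrary units, log scale) for the 8133 measured genes in grey and the 10 factors in red, each by its brightest probe set. Nkx6-1 and Insm1 lie near -0.58 and -0.57, Isl1 lies at 0.33, and 0 of the 10 factors lie beyond 1.5-fold.

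The 3 factors made mainly by beta cells in the islet all had lower signals on the knockout array, beside 45.1% of all measured genes. The groups of factors were chosen with the values known, so this count is not independent evidence. Nkx6-1, a homeodomain repressor that keeps beta cells from taking on alpha cell features, gave signals of 488.1 in wild-type and 326.2 in knockout islets, 1.496-fold lower and just short of the 1.5-fold limit. Only 3.02% of measured genes had a lower ratio, and 2.66% of the 2033 genes in the brightest of 4 classes by signal, to which it belongs. Mnx1, a homeodomain factor needed for beta cell differentiation and known also from motor neurons, had 147.7 in wild-type and 111.8 in knockout islets, 1.32-fold lower (log2 -0.40). A lower ratio was found for 7.30% of measured genes. These values rest on the only probe set of each gene.

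Pdx1, the homeodomain factor without which no pancreas forms and which in beta cells activates the insulin and glucose transporter genes, was read by 2 probe sets. On the brighter one (1422174_at) the signal was 310.2 in wild-type and 245.5 in knockout islets, 1.26-fold lower (log2 -0.34), and 10.1% of measured genes had a lower ratio. On the other (1422173_at) it was 51.6 in wild-type and 18.3 in knockout islets, where it lay under the floor. That probe set gives only a bound, at least 1.30-fold lower, on the same side as the brighter one. The bound depends on the floor: it was at least 2.67-fold with the floor at the 25th percentile (19.3), and both arrays were under the floor at the 60th percentile (90.6). Both probe sets of Pdx1 were thus lower on the knockout array, the dimmer of them at signals near the limit of what the arrays measure.

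**Figure D2:**
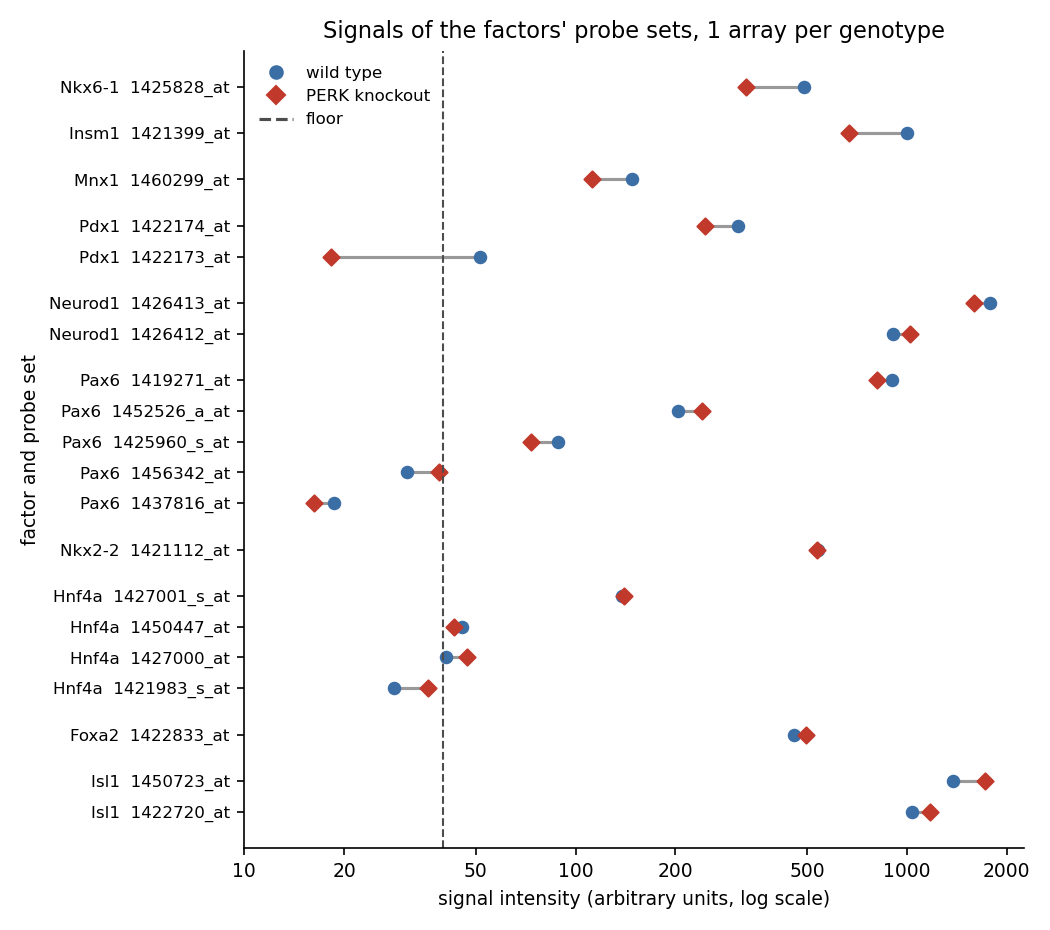
Signal intensity (horizontal axis, arbitrary units, log scale) of each of the 20 probe sets of the 10 factors, with the wild-type array as blue circles, the knockout array as red diamonds and the floor of 39.8 as a dashed line. Each pair of points is 1 probe set on 2 arrays. The knockout diamond lies to the left for Nkx6-1, Insm1, Mnx1 and both probe sets of Pdx1, and to the right for both probe sets of Isl1.

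The 5 factors shared by several endocrine cell types were spread over nearly the whole range, from -0.57 to 0.33, with a median of -0.15. Insm1, a zinc finger factor that drives endocrine differentiation, gave signals of 998.3 in wild-type and 670.6 in knockout islets with its single probe set, 1.49-fold lower (log2 -0.57), and 3.11% of measured genes had a lower ratio. It was as low as Nkx6-1 within probe set error. Nkx2-2, a homeodomain factor of endocrine progenitors and of beta and alpha cells, was level, at 539.3 in wild-type and 535.0 in knockout islets. Its log2 ratio of -0.01 turned to 0.03 with quantile and 0.01 with loess normalisation.

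Neurod1, which activates the insulin gene together with E proteins, was read by 2 probe sets that lay on opposite sides of equality. On 1426413_at the signal was 1781 in wild-type and 1596 in knockout islets (log2 -0.16), and on 1426412_at it was 908.5 and 1022 (log2 0.17). The difference of 0.33 between them was larger than that of 67.8% of the 2597 genes with 2 or more measured probe sets, and no direction can be given for Neurod1 from these arrays. Pax6, a paired domain and homeodomain factor needed for hormone gene expression in alpha and beta cells, had 5 probe sets, of which 3 were measured. Its brightest (1419271_at) had 902.1 in wild-type and 813.7 in knockout islets (log2 -0.15). The signals of the second (1452526_a_at) were 203.7 and 241.1 (log2 0.24), and those of the third (1425960_s_at) 88.4 and 73.3 (log2 -0.27). The suffix _a_at marks probe sets shared by transcripts of 1 gene, and _s_at those whose probes match several transcripts, which may be of different genes. The measured probe sets of Pax6 spanned 0.51 on the log2 scale, the widest range among the factors, with 2 below and 1 above equality. The remaining 2 stayed under the floor, at 30.9 and 38.6 and at 18.6 and 16.2.

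Isl1, a LIM homeodomain factor of all islet endocrine cell types, was the only factor whose signal was higher on the knockout array by more than the probe set SD. Its probe sets agreed in direction: 1450723_at had 1374 in wild-type and 1726 in knockout islets, 1.26-fold higher (log2 0.33), and 1422720_at had 1033 and 1179, 1.14-fold higher (log2 0.19). Of measured genes, 84.2% had a lower ratio, and 93.0% of those in its brightness class. Isl1 was above 0 in all 9 alternative settings, between 0.23 and 0.38. Isl1 is made also by non-beta endocrine cells and by neurons. The list of other endocrine hormones and regulators was above equality in 10 of 10 measured genes, beside 54.9% of all measured genes (median 0.30). With median centring 7 were above it, and 8 with quantile or loess normalisation. Gcg, Ttr and Sst, picked with their values in view, were level (log2 0.01, 0.02 and 0.06). The list's summed signal was 33910.6 in wild-type and 38010 in knockout islets, mostly from bright genes near the top of the arrays' range. Ghrl, the hormone ghrelin, was 1.71-fold higher on that list (1461 and 2503). Neuronal and Schwann markers were above equality in 5 of 7 (median 0.38, signal summed over all 8 on the array 1102 and 1294), with S100b under the floor on both arrays. Their part in the Isl1 ratio was not tested.

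The factors of the wider gut and pancreas lineage were near equality. Foxa2, a forkhead factor that opens chromatin and acts upstream of Pdx1, had 456.7 in wild-type and 497.2 in knockout islets on its only probe set (log2 0.12, between 0.02 and 0.16 in the 9 alternative settings). Hnf4a, a nuclear receptor shared by liver, gut and pancreas, had 4 probe sets. The brightest (1427001_s_at) had 137.7 in wild-type and 139.7 in knockout islets, a log2 ratio of 0.02 that was below 0 in 4 of 9 alternative settings (lowest -0.09). The next (1450447_at, 45.4 and 42.8) gave -0.09 and the third (1427000_at, 40.5 and 47.0) gave 0.21, both just above the floor, and the last was under the floor on both arrays (28.3 and 35.8). No direction can be given for Hnf4a. Foxa2 and Hnf4a are also made outside the islet: 12 measured acinar markers had a median of 0.10 (signal summed over all 13 on the array, 36490.2 in wild-type and 38949.9 in knockout islets), 8 duct markers a median of 0.00, which was below 0 in 4 of 9 alternative settings (6281 and 6980.0 over all 9 on the array), and 5 liver and gut markers a median of 0.25 (478.0 and 603.0 over all 9 on the array). With the floor at the 60th percentile, Apoa1 (log2 -0.45), named after its value was seen, was the 1 liver and gut marker still measured. Rbpjl (acinar), Cftr (duct) and Afp, Fga, Fabp1 and Fabp2 (liver and gut) were under the floor on both arrays. Their part in these ratios was not tested.

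**Figure D3:**
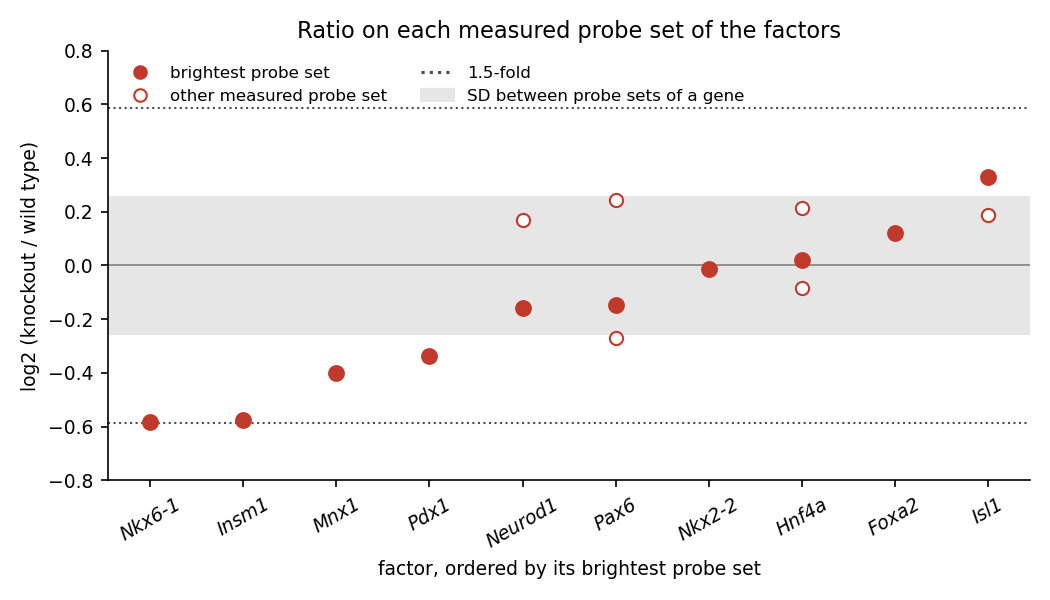
Log2 ratio of knockout over wild type on each measured probe set of the 10 factors, with the brightest probe set of a factor filled and the others open. The grey band is the SD between probe sets of a gene (0.26) on either side of 0, and the dotted lines mark 1.5-fold. Nkx6-1, Insm1, Mnx1 and Pdx1 lie below the band, Isl1 lies above it on its brightest probe set, and Neurod1, Pax6 and Hnf4a have probe sets on both sides of 0.

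Ordered from lowest to highest, neighbours in the series of factors differed by less than the probe set SD of 0.26, so no order is read between neighbours. Over all 16 measured probe sets of the factors, without choosing the brightest, 9 were below 0 and 7 above, with a median of -0.05, and 44.8% of the 11893 measured probe sets of all named genes were below 0. With the median over the measured probe sets of each gene, 6 of 10 factors were below 0, beside 43.9% of measured genes. Neurod1 was then at 0.01, and the median of the factors was -0.08. The 4 lowest factors rest on a single measured probe set each, while the 4 factors with more than 1 measured probe set (Neurod1, Pax6, Isl1 and Hnf4a) include none of them. Member signals reached at most 1781, 21.9% of the maximum of the wild-type array, so none lay near the top of the range.

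Promoter windows from 250 bases before to 50 bases after the gene start were taken from RefSeq (GRCm38.p6) to set the lowest and the highest factors side by side. Of the 10 factors, 9 had 1 or more windows, 13 in all, and Insm1 had none. The windows of the 3 beta cell factors with lower signals are printed first, then that of Isl1, the highest, and that of Pax6, which shares a motif with Isl1. The positions are chr5:147269847-147270146 on the plus strand for Pdx1, chr5:101664662-101664961 on the minus strand for Nkx6-1, chr5:29478421-29478720 on the minus strand for Mnx1, chr13:116309639-116309938 on the minus strand for Isl1 and chr2:105668646-105668945 on the plus strand for the first start of Pax6. Capitals mark matches, on either strand, to the 6 motifs searched.
Pdx1: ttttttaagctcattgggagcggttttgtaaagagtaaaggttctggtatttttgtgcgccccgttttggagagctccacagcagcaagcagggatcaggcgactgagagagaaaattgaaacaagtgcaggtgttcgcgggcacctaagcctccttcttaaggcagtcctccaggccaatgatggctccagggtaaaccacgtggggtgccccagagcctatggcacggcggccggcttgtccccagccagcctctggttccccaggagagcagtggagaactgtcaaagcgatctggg
Nkx6-1: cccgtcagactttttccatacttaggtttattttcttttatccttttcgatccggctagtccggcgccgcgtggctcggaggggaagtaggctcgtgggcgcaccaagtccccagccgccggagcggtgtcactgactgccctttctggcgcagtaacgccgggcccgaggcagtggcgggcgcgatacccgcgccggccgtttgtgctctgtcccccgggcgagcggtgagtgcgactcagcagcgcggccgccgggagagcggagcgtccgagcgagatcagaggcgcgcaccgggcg
Mnx1: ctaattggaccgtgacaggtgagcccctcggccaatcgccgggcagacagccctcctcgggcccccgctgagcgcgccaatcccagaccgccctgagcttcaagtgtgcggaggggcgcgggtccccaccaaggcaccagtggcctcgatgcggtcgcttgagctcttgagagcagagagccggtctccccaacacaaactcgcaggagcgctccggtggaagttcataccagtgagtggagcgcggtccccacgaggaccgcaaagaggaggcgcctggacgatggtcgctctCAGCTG
Isl1: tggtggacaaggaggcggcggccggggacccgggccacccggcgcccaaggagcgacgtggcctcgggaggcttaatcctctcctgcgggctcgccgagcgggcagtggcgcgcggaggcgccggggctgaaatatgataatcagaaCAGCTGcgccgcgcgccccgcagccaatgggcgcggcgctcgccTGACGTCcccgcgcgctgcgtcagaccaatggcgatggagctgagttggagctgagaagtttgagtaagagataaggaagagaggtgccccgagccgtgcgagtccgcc
Pax6: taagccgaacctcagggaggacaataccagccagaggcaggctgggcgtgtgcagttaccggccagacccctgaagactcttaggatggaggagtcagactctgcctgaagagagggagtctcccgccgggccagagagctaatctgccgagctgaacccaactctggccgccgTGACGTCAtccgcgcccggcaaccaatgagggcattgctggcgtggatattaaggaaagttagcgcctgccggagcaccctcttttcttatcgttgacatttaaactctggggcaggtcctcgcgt

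The motifs were TAATTA (the homeodomain core), CAGATG and CAGCTG (E-boxes, which basic helix-loop-helix factors such as Neurod1 bind), TGTTTAC (forkhead), CAAAGTC (Hnf4) and TGACGTC (the core of the cAMP response element, bound by ATF and CREB factors). At least 1 motif was found in 6 of the 13 windows, against 41.5% of all 32851 RefSeq windows. TGACGTC stood in 2 windows, those of Isl1 (59 bases before the start) and Pax6 (76 bases before it, where the forward and reverse matches overlap), and 3.21% of all windows hold it. CAGCTG stood in those of Isl1, Mnx1 and the first start of Hnf4a, and 16.3% of all windows hold it. CAGATG stood in that of Nkx2-2 (17.2% of all) and TAATTA in that of the second start of Hnf4a (5.29% of all). TGTTTAC (3.65% of all) and CAAAGTC (4.44% of all) stood in 0 of the 13. The other 7 windows, those of Pdx1, Nkx6-1, Neurod1, the second start of Pax6 and all 3 starts of Foxa2, held none of the 6 motifs. The factors' windows had a median GC content of 58.7%, from 46.3% to 69.0%, beside 52.7% over all windows, and a median of 17 CpG dinucleotides beside 7. Among the printed windows it was 55.3% for Pdx1, 67.3% for Nkx6-1, 66.3% for Mnx1, 69.0% for Isl1 and 58.7% for Pax6. A match is a description of these letters and was not related to binding.

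Genes that the factors are known to activate in beta cells had lower ratios than most measured genes. The list held 16 symbols, among them both Ero1b and its older name Ero1lb. Of these, 10 were on the array and 8 were measured, 7 of them below 0, beside 45.1% of all measured genes. Their median log2 ratio was -0.56 (-0.34 when a pseudocount of 16 replaced the floor and brought in the 2 unmeasured genes). At least 1.5-fold lower were 4 of the 8, beside 2.95% of measured genes. Pcsk1, the convertase that cleaves proinsulin, was 2.77-fold lower (919.8 in wild-type and 332.6 in knockout islets). Slc2a2, the glucose transporter and a target of Pdx1, was 1.85-fold lower (860.4 and 464.9). G6pc2, a glucose-6-phosphatase subunit, was 1.66-fold lower (2459 and 1483). Gjd2, the gap junction protein connexin 36 that couples beta cells, was 1.61-fold lower (175.9 and 109.5). The list was drawn up with several of these values known, so its count is not independent evidence. The ratios of the 4 lowest targets were below that of every factor. Glp1r and Kcnj11 were under the floor on both arrays. Ins2, the 1 measured target above 0, had 5652 in wild-type and 6163 in knockout islets, near the top of the arrays' range. It rests on 1 measured probe set of the _x_at type, whose probes may also match other sequences. Without _x_at and _s_at probe sets, 7 of 7 measured targets were below 0, beside 45.0% of measured genes.

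Other transcription factors of the islet and pancreas lay mostly on the other side of equality. Of 36 listed, 24 were on the array and 16 were measured, 12 of them above 0 (54.9% of all measured genes were), with a median of 0.29, beside -0.15 for the 10 beta cell factors and 0.03 for all measured genes. At least 1.5-fold higher were 5 of the 16, beside 4.19% of measured genes. Pou3f4, an alpha cell factor, was 1.92-fold higher (114.4 in wild-type and 219.4 in knockout islets). Myt1, a zinc finger factor of endocrine progenitors, was 1.78-fold higher (114.6 and 203.7). Hhex, the delta cell factor, and Irx2, an alpha cell factor, were each 1.53-fold higher (313.0 and 479.2, and 186.0 and 284.1). Neurog3, the factor that starts endocrine differentiation and activates Neurod1 and Insm1, was the fifth (109.8 and 166.4, 1.52-fold) and was named after its value was seen. All 5 rest on a single measured probe set. Pou3f4, Hhex, Irx1 and Irx2 are also on the list of other endocrine hormones and regulators, so the counts of these lists are not independent. Ptf1a and Bhlha15 are shared with the acinar markers and Sox9 with the duct markers. Pax4, Nkx6-2, Rfx3, Hnf4g, Foxa1, Gata4, Onecut1 and Prox1 were under the floor on both arrays. The median of this list was between 0.11 and 0.33 over the 9 alternative settings, and that of the beta cell factors between -0.25 and -0.08.

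Partners and inhibitors of the factors were mostly slightly above equality. Of 29 listed, 26 were on the array and 24 were measured, 17 of them above 0, beside 54.9% of all measured genes, with a median of 0.14 (0.04 when each array was divided by its median). At least 1.5-fold higher were 3 of the 24, beside 4.19% of measured genes. Ldb1, the adaptor that LIM homeodomain factors such as Isl1 need, was 1.62-fold higher (156.8 in wild-type and 253.3 in knockout islets). Id3, which blocks basic helix-loop-helix factors by capturing their E protein partners, was 1.52-fold higher (233.8 and 356.2). Spop, an adaptor of the ubiquitin ligase that degrades Pdx1, was 1.92-fold higher (155.5 and 298.4), but its second probe set gave a log2 ratio of -0.18. Log2 ratios of other Id genes, picked with their values in view, were 0.31 (Id1), 0.46 (Id2, 0.56 on its second probe set) and -0.05 (Id4). The E protein genes Tcf3, Tcf4 and Tcf12, picked likewise, had 0.00, 0.07 and 0.15 on their brightest probe sets. The others measured for Tcf4 ran from 0.33 to 1.03, and the other one for Tcf12 gave -0.39. Kdm1a, Hdac1 and Rcor1, which Insm1 recruits as a repressor complex, were also picked with their values in view and had -0.23, -0.09 and 0.12. Other probe sets of Rcor1 gave -0.13 and 0.49. Of the related genes on the list, picked likewise, Hdac2 had -0.14. Rcor2 was at least 1.70-fold higher (17.1 in wild-type islets, under the floor, and 67.5 in knockout islets). On the brightest probe set, no measured partner was as far below equality as Nkx6-1, Insm1, Mnx1 or Pdx1. This depends on the probe set. The other probe set of Tcf12 was further below equality than Pdx1. Those of Pbx2, picked with their values in view, gave -0.34 and 0.73, beside 0.28 on its brightest.

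**Figure D4:**
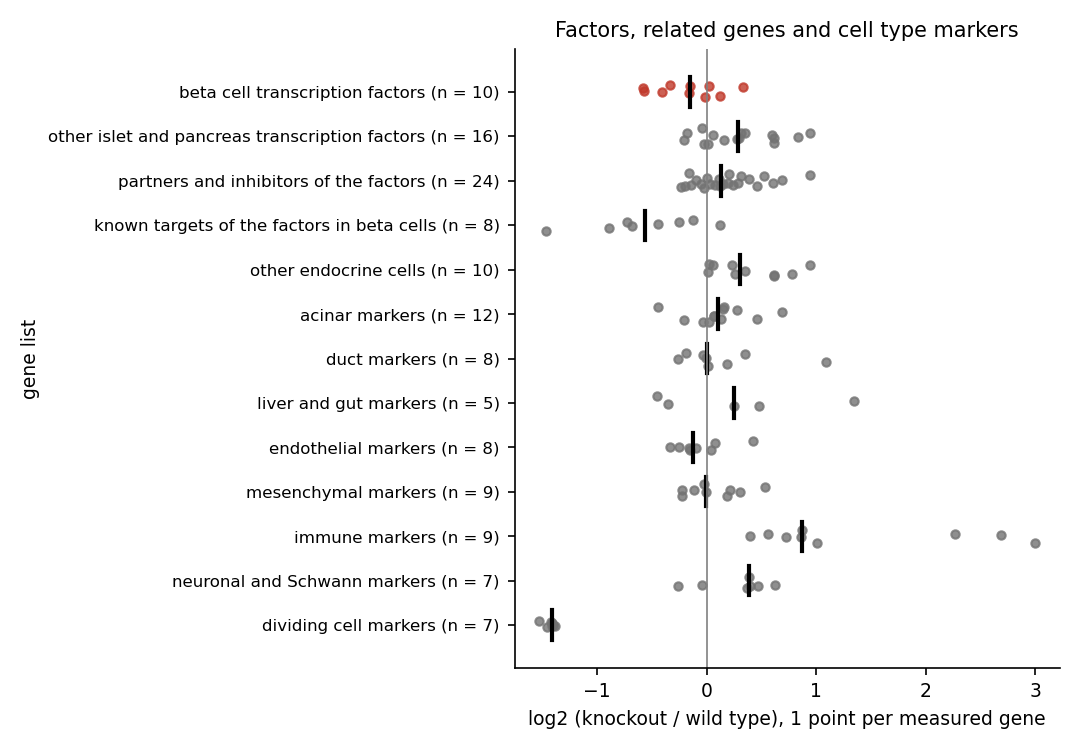
Log2 ratio of knockout over wild type (horizontal axis) of every measured gene on 13 lists, 1 point per gene by its brightest probe set, with the list median as a black bar and the number of measured genes beside each name. The 10 beta cell factors (red) have a median of -0.15, between the known targets at -0.56 and the other islet and pancreas factors at 0.29. Points are spread vertically for legibility only.

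Signals of some cell type markers and of control probe sets also differed between the 2 libraries. Eif2ak3, which encodes PERK, had 117.7 in wild-type and 58.7 in knockout islets where brightest, and its other 2 probe sets were under the floor. Which exons the allele lacks is unknown here, so this value is not a check of the labels if the probes lie elsewhere in the transcript. Immune markers were above equality in 9 of 9 measured genes, beside 54.9% of all measured genes (median 0.87). Their summed signal over 12 genes was 1134 in wild-type and 3439.7 in knockout islets. Itgam was under the floor on both arrays, and Ptprc and C1qc were under it in wild-type islets only. Dividing cell markers were below equality in 7 of 7, beside 45.1% of all measured genes (median -1.41, summed signal 2532 and 940.6). Endothelial markers had a median of -0.12 over 8 genes and mesenchymal markers of -0.01 over 9. The hormone genes Gcg (5662 in wild-type and 5718 in knockout islets) and Sst (5645 and 5868) marked both libraries as islets, and bright acinar genes such as Cela3b (7279 and 7119) showed exocrine RNA in both. The ratio of 3' to 5' signal, which depends on RNA integrity and labelling, was 1.61 in wild-type and 2.01 in knockout islets for beta-actin and 1.01 and 0.867 for Gapdh. The part of cell composition and RNA quality in the ratios of the beta cell factors was not tested.

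Nkx6-1, Insm1, Mnx1 and Pdx1 were the 4 lowest factors in all 9 alternative settings. Each rests on 1 measured _at probe set brighter than every floor used. The deposited scale, the other floors and the rules for choosing probe sets therefore left its value almost fixed. Only median centring, quantile or loess normalisation and the pseudocount could move it. Nkx6-1 stayed between -0.68 and -0.56 over the 9 settings, Insm1 between -0.67 and -0.53, Mnx1 between -0.50 and -0.36 and Pdx1 between -0.44 and -0.32. Pax6 stayed below 0, between -0.25 and -0.09, on its brightest probe set or on the median of its probe sets. Nkx6-1 and Insm1 passed the 1.5-fold limit only where each array was divided by its median. Neurod1 changed side in 1 of the 9 settings, Nkx2-2 in 2 and Hnf4a in 4.

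**Figure D5:**
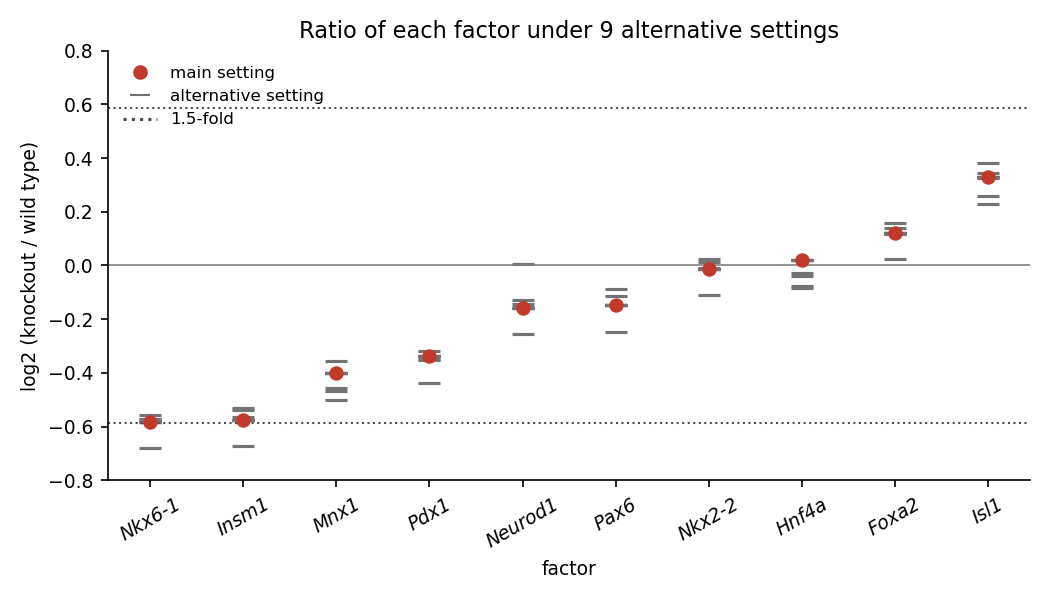
Log2 ratio of knockout over wild type of each factor in the main setting (red points) and in 9 alternative settings of scaling, normalisation, floor and probe set choice (grey dashes), with dotted lines at 1.5-fold. Nkx6-1, Insm1, Mnx1 and Pdx1 stay below 0 and Isl1 and Foxa2 above 0 in all 9, while Neurod1, Nkx2-2 and Hnf4a have settings on both sides. Settings of floor and probe set choice cannot move a factor with a single bright _at probe set.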

How the data were processed

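The authors deposited 1 linear signal intensity per probe set for 2 arrays. The submitters' processing notes name GCOS 1.02 alone, and the sources used here do not state the background correction, summary method or detection calls. Their 2% trimmed mean was 150.1 for either array, which shows a common scaling before deposit. Here the knockout array was set to the trimmed mean of the wild type (factor 1.00), signals below 39.8, the 40th percentile over both arrays, were raised to that floor, and knockout signals were divided by wild-type signals on the log2 scale. Gene names came from the annotation of the array platform, in which 20380 probe sets had 1 symbol, 691 several, 1555 none here and 64 were controls. Each gene was represented by its brightest probe set. Symbols were checked through RefSeq gene IDs (GRCm38.p6), and 0 changed.

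The 10 factors, the gene lists and the groups of factors were chosen with earlier results of these data known. Outside the factors, the rule named list members at least 2-fold apart, then up to 4 in each direction at least 1.5-fold apart, and the 2 brightest where fewer than 2 qualified. Lists of cell type markers are given by counts and sums, and their genes under the rule are not all named. Genes outside the rule are said to have been named after their values were seen, except Ins2, Gcg, Sst and Cela3b, given as checks of the tissue and of the signal range, and genes under the floor. With 1 array per genotype no p-value was computed, and the number of arrays limits the precision. With 2 arrays a gene's pattern is a single ratio, so no gene was named for its likeness to a factor. The 9 alternatives kept the deposited scale, divided by the array median, used quantile or loess normalisation, set the floor at the 25th or the 60th percentile, replaced it by a pseudocount of 16, took the median over probe sets, or omitted _x_at and _s_at probe sets. The calculation was tested on simulated data. Python 3.11.15, pandas 2.3.3, scipy 1.17.1 and statsmodels 0.14.6 were used.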

Additional observations from a re-analysis of the deposited data

How the results depend on the processing

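The median of the 10 factors stayed below 0 in all 9 alternative settings, between -0.25 (each array divided by its median) and -0.08 (median over probe sets). In those settings 6 to 8 of the factors were below 0, beside 43.9% (median over probe sets) to 59.3% (median centring) of measured genes. The count of factors at least 1.5-fold lower was 0 in the main setting, beside 2.95% of measured genes. It was 2 (Nkx6-1 and Insm1) with median centring, beside 362 of 8143 measured genes. Median centring moved the ratios of the factors down by a like amount. No factor was at least 1.5-fold higher in any of the 9 settings. Over all measured genes, the 240 that were at least 1.5-fold lower became 362 with median centring, 131 with the floor at the 60th percentile and 415 with the pseudocount. The 341 higher became 214, 135 and 581 in those settings and 579 with the floor at the 25th percentile. At 2-fold, 53 lower and 42 higher became 80 and 81 with the floor at the 25th percentile and 28 and 13 with it at the 60th, and the 42 higher became 25 with median centring, 27 with quantile and 27 with loess normalisation, and 88 with the pseudocount. No paired analysis was possible because there is 1 array per genotype. Pdx1's dimmer probe set and 2 of Hnf4a lay within 1.30 times the floor on the wild-type array, where signal limits what a ratio can show.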

Other observations

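The nearest protein-coding genes on either side of each factor, in the order of the RefSeq gene table, were looked up after the factors' values were seen. Of the 20 neighbours, with Pax1 counted for both Nkx2-2 and Foxa2, 6 were measured. Some had no probe set named for them alone, among them both neighbours of Nkx6-1 and both of Hnf4a. The neighbours of Isl1, Pelo (a ribosome rescue factor, 111.2 in wild-type and 76.6 in knockout islets, log2 -0.54) and Parp8 (57.1 and 43.2, log2 -0.40), lay on the other side of equality from Isl1 itself. Those of Pax6 were near equality, Rcn1 at 0.03 and Elp4 at -0.15. Ube3c beside Mnx1 had -0.08 and Itprid2 beside Neurod1 had 0.30. The genes flanking Pdx1 (Gsx1 and Cdx2), Nkx2-2 (Nkx2-4 and Pax1) and Foxa2 (Pax1 and Sstr4) were under the floor on both arrays. So was Cfap61 beside Insm1.

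Hnf4aos, the antisense transcript named after Hnf4a, had 34.7 in the wild type, under the floor, and 50.2 in the knockout, at least 1.26-fold higher, while the brightest probe set of Hnf4a was level.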
